A study of Mus musculus with 20 samples.

Results

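The 79 genes described here are the protein-coding cytochrome P450 genes of families 1 to 4 in mouse lung, apart from Cyp2f2 and Cyp2e1. They are the genes whose symbol and biotype match that rule, out of 54532 genes in the deposited table. RNA was sequenced in 20 libraries from wild-type lung tissue, 5 in each of 4 groups: SMD (the herbal formula Shegan-Mahuang Decoction), prednisone (a synthetic glucocorticoid), model (an asthma model) and control. The design text gives 15 mice per group. How the model was made, the strain, sex and age of the mice, the doses, the times and whether the treated groups also received the model procedure could not be read from the labels and design text, and so are not given here. The labels do not say that the 5 libraries of a group came from separate mice, so a p-value here reflects the spread among these libraries alone, some of which may be technical. One prednisone library carries the number 1 in its treatment label and the number 5 in its title, and it is called prednisone replicate 5.

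Cytochrome P450 enzymes of these families sit in the membrane of the endoplasmic reticulum, hold a haem group and insert 1 oxygen atom into a substrate, taking electrons from P450 oxidoreductase. Families 1 to 3 are best known for oxidizing drugs, smoke components and other foreign chemicals, mostly in the liver, while family 4 hydroxylates fatty acids and eicosanoids at or near the end of the chain. In the lung, club cells of the airway epithelium are the classic site of P450 activity, with further activity in alveolar type 2 cells and endothelium. Many members are switched on by ligand-activated receptors: AhR for family 1, CAR and PXR for families 2 and 3, and PPARα for Cyp4a genes.

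A few genes carried most of the family's RNA in lung. Levels are FPKM values (fragments scaled to gene length and to the mapped fragments of the library), which are per length and so can be set beside each other between genes. A gene was tested if at least 5 of the 20 libraries reached 1 FPKM, and 16 of the 79 members did. The 4 most abundant, Cyp4b1, Cyp2b10, Cyp2a5 and Cyp2s1, held 85.3% of the summed mean level of all 79. By family, 2 of 3 members of family 1, 6 of 47 of family 2, 0 of 9 of family 3 and 8 of 20 of family 4 passed. Family 2 held 52.1% of the summed level and family 4 held 44.8%, while family 1 held 3.01% and family 3 held 0.161%. Cyp4b1 averaged 182 FPKM over all libraries and Cyp4a12b, the lowest member that passed, 1.17 FPKM.

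**Figure D1:**
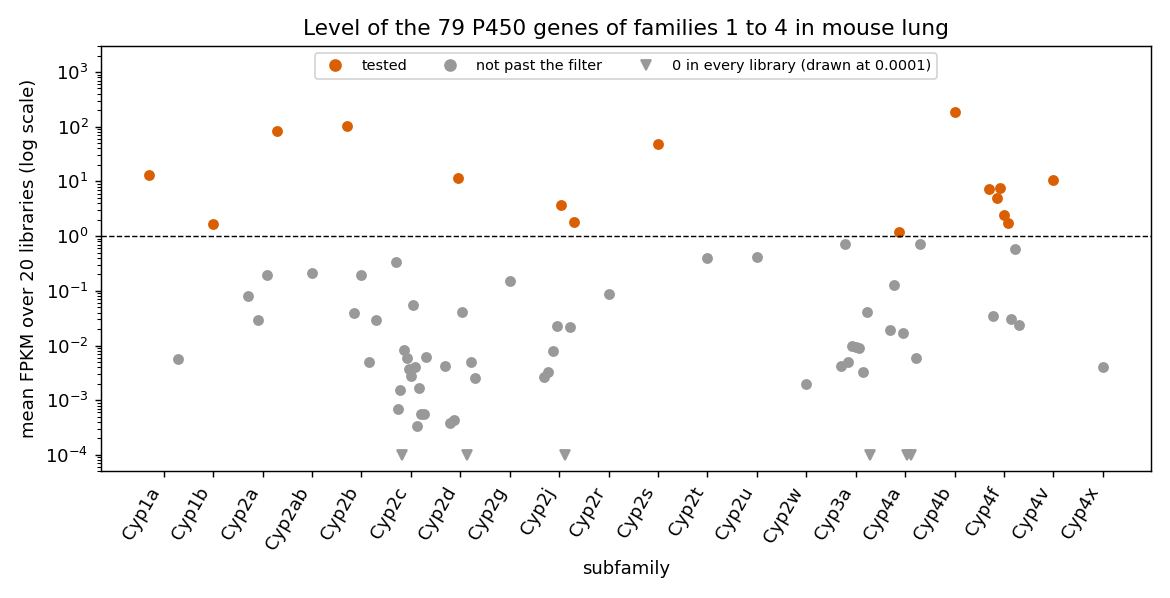
Mean FPKM over the 20 libraries (log scale) of each of the 79 members, by subfamily. Orange points passed the filter and were tested, grey points did not, triangles were 0 in every library, and the dashed line marks 1 FPKM. Most subfamilies hold at most 1 member above the line, and Cyp4f holds 5.

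The order of the levels was firm at the top and loose lower down. Cyp4b1 was above Cyp2b10 in 20 of 20 libraries, Cyp2b10 above Cyp2a5 in 16, Cyp2a5 above Cyp2s1 in 18 and Cyp2s1 above Cyp1a1 in 20. Cyp1a1 (mean 13.1 FPKM), Cyp2d22 (11.5 FPKM) and Cyp4v3 (10.6 FPKM) could not be ordered: Cyp1a1 was above Cyp2d22 in 9 libraries and Cyp2d22 above Cyp4v3 in 10. Cyp4f16 (7.43 FPKM) and Cyp4f13 (7.17 FPKM) traded places in the same way, with Cyp4f16 higher in 11. Cyp4f15 (4.95 FPKM), Cyp2j6 (3.65 FPKM) and Cyp4f17 (2.47 FPKM) came next in order. Cyp2j9 (1.78 FPKM), Cyp4f18 (1.71 FPKM) and Cyp1b1 (1.65 FPKM) formed the last unresolved group, each above the next in 9 or 10 libraries.

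The 63 members that did not pass include the families best known from liver. Of these, 57 had a value above 0 in at least 1 library, 39 stayed under 0.1 FPKM in every library and 6 were listed at 0 in every library. The 5 highest were Cyp3a13 (mean 0.707 FPKM), Cyp4a32 (0.706 FPKM), Cyp4f39 (0.579 FPKM), Cyp2u1 (0.409 FPKM), a fatty acid hydroxylase, and Cyp2t4 (0.394 FPKM). Cyp3a13 and Cyp4a32 were the only members among the 63 to reach 1 FPKM in any library, with a highest value of 1.18 FPKM. All 15 Cyp2c genes, which in liver make epoxides of arachidonic acid and clear drugs, stayed under 1 FPKM, and 13 of them stayed under 0.1 FPKM in every library. Cyp2c23 was the highest of them, with a mean of 0.339 FPKM. Cyp1a2, the hepatic partner of Cyp1a1, averaged 0.00577 FPKM, and Cyp2r1, a vitamin D 25-hydroxylase, 0.0889 FPKM. Markers of liver cells were low as well: over 10 genes they summed to 3.50 to 6.46 FPKM in SMD, 4.41 to 10.7 FPKM in prednisone, 4.86 to 10.7 FPKM in model and 6.42 to 11.1 FPKM in control libraries. Albumin (Alb) was at most 2.29 FPKM and fibrinogen beta (Fgb) was listed at 0 in 5 libraries.

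The libraries carried the cell types of lung. Markers of club cells summed to 44973 to 60612 FPKM in SMD, 39786 to 63979 FPKM in prednisone, 45914 to 62136 FPKM in model and 53512 to 62101 FPKM in control libraries, mostly from Scgb1a1, and of the 13 listed Kcnj16 alone was listed at 0 in any library (4). Alveolar type 2 markers were abundant. Their sum, mostly Sftpc, was 17904 to 20394 FPKM in model against 13142 to 17025 FPKM in control libraries, without overlap. Singly, only Sftpc, Sftpd and Napsa did not overlap, where 2.84% of all genes were higher in every model library. Of the 10, limma called 0, and 7 were higher at an unadjusted p under 0.05, as were 13% of all genes. Library sums of FPKM were 377639 to 446711, apart from 522361 for control replicate 1, in which the 7SL and 7SK RNAs and their copies took 7.50% of the sum against at most 0.901% elsewhere. Depth is unknown, so precision rests on the spread between libraries. In such bulk tissue, fewer cells of a type and less RNA per cell cannot be told apart.

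No member passed the test in any of the 6 comparisons. The test was limma on log2(FPKM + 1) over all 15106 genes that passed the filter, with Benjamini-Hochberg adjustment, and a call at an adjusted p under 0.05. Between model and control it called 0 of 16 members, where 0.192% of all genes were called. Of SMD with model it called 0 members, where 2.15% of all genes were called, and of prednisone with model also 0, where 8.04% were called. The shares of all genes called were 4.59% for SMD with prednisone, 1.05% for SMD with control and 3.57% for prednisone with control, and again 0 members were called in each. At background shares of this size, 0 of 16 sets the members apart from other genes in none of the comparisons.

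At an unadjusted p under 0.05, limma found 2 members higher and 3 lower in model than in control, where 13% and 2.81% of all genes were. With SMD against model there was 1 higher and 1 lower, against 3.14% and 15.7% of all genes. With prednisone against model there were 0 higher and 1 lower, against 5.04% and 18.5% of all genes. Between SMD and prednisone 2 were higher in SMD and 0 lower, against 9.7% and 9.78%. Set against control, SMD had 1 higher and 6 lower, where 6.48% and 8.06% of all genes were, and prednisone 2 higher and 4 lower, where 10.2% and 10.5% were. The 3 comparisons with control share its 5 libraries, as the 3 that involve the model share the model libraries. The median log2 fold change of the 16 members was -0.12 for model minus control against 0.05 for all genes, -0.06 against -0.06 for SMD minus model, and -0.04 against -0.05 for prednisone minus model. With quantile normalization the members' median turned to 0.02 for SMD minus model and to 0.07 for prednisone minus model, and with median-of-ratios scaling to 0.01 for the second.

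Groups of libraries rarely separated. Between model and control 1 member was higher in every model library and 0 were lower, where 2.84% and 0.331% of all genes were. No overlap was found for 1 member above and 2 below control in SMD, against 2.09% and 2.58% of all genes. In prednisone 0 were above and 1 below control, against 2.44% and 3.14%. All 16 members overlapped in the other comparisons. There the shares of all genes above and below were 0.589% and 4.03% for SMD with model, 0.9% and 6.68% for prednisone with model, and 2.74% and 3.34% for SMD with prednisone.

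**Figure D2:**
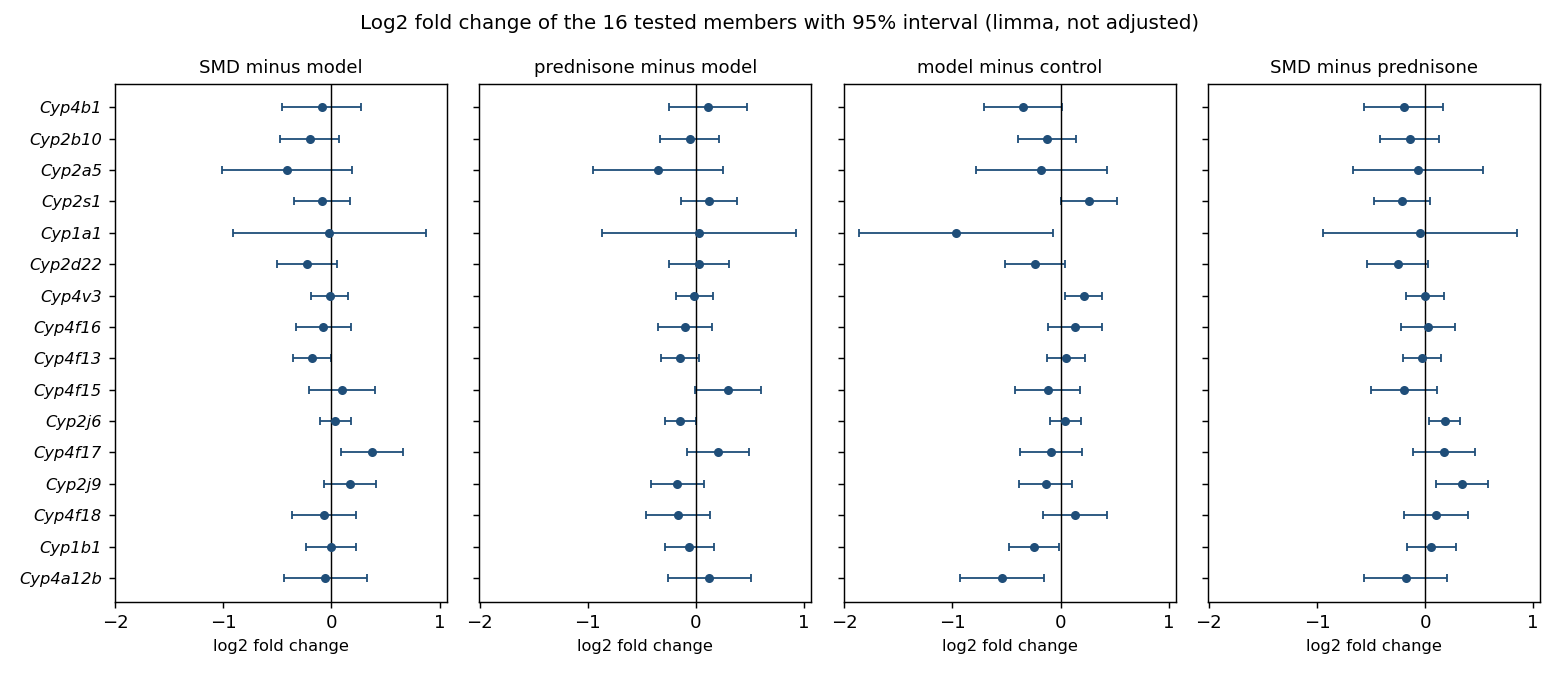
Log2 fold change on the log2(FPKM + 1) scale of the 16 tested members (rows) in 4 comparisons (panels), with 95% intervals from limma that are not adjusted for the number of genes. Most intervals include 0, Cyp1a1 and Cyp2a5 have the widest, and no member passed at an adjusted p under 0.05.

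Cyp1a1 and Cyp1b1 are the family 1 enzymes that oxidize polycyclic aromatic hydrocarbons and oestrogens, and both are textbook targets of AhR, the aryl hydrocarbon receptor. The bases just before their starts are shown with those of Cyp4b1 and Cyp2a5, both among the 3 most abundant members, so that the starts of known AhR targets can be set beside those of abundant members. Capitals mark GCGTG, the core of the element that AhR binds, read on either strand, and the TATA box TATAAA. Each is the 250 bases before the start in RefSeq (GRCm38.p6); the Cyp1a1 gene as annotated by GENCODE begins further upstream.
Cyp1a1, chr9:57697363-57697612, plus strand: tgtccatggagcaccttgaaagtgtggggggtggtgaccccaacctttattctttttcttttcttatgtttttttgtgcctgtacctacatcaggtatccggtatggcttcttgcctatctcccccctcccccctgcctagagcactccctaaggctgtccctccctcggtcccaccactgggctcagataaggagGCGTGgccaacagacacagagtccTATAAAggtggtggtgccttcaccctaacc
Cyp1b1, chr17:79715062-79715311, minus strand: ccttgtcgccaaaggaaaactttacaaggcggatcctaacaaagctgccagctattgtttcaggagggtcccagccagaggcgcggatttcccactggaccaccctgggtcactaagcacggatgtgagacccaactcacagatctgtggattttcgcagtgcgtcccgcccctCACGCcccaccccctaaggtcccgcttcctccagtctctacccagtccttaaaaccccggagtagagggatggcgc
Cyp4b1, chr4:115647722-115647971, minus strand: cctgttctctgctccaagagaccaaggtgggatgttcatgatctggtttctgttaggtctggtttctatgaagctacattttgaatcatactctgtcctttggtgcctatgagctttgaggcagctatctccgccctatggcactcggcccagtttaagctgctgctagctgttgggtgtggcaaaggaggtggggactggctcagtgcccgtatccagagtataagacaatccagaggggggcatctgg
Cyp2a5, chr7:26835089-26835338, plus strand: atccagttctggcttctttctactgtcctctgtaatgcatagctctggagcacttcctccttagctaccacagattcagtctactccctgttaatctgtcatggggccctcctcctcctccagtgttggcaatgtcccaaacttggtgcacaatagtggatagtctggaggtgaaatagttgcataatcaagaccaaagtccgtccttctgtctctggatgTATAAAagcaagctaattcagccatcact
The Cyp1a1 window held GCGTG 54 bases before the start and TATAAA 30 bases before it, and the Cyp1b1 window held GCGTG on the other strand 76 bases before the start and no TATAAA. In the Cyp2a5 window TATAAA stood 29 bases before the start and no GCGTG was found, and the Cyp4b1 window held neither. Both strands were searched, and the motifs share no bases. GCGTG was present in 28.2% of all 32851 windows of this length and in those of 13 of the 64 members with an entry, among them 6 of the 13 tested. TATAAA was present in 12.4% of all windows and in those of 25 of the 64 members, among them 2 of the 13 tested. A full palindromic glucocorticoid response element was found in 3 of all windows and in 0 of the 64 members with an entry. A match is a run of letters, not a site shown to be used.

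Cyp1a1 (chromosome 9, 57687928 to 57703824, plus strand, GRCm38) was the most variable of the tested members, with a highest value 8.50 times the lowest. It had 18.0, 10.7, 3.87, 14.5 and 5.45 FPKM in the SMD libraries and 15.5, 6.41, 8.03, 8.25 and 11.4 FPKM in the prednisone libraries. In model libraries it had 32.9, 6.01, 4.38, 6.61 and 10.7 FPKM, against 26.2, 26.7, 15.9, 16.7 and 13.5 FPKM in control libraries. All 5 control libraries were above 13 FPKM, and so were 2 SMD libraries, 1 prednisone library and 1 model library. The groups overlapped. The means were 12.1 ± 11.9 FPKM in model and 19.8 ± 6.21 FPKM in control libraries (SD, n = 5 each). Their log2 fold change was -0.97 ± 0.428 (SE; limma, adjusted p = 0.278). Log2 fold changes were -0.02 for SMD minus model (95% interval -0.91 to 0.88; limma, adjusted p = 0.989) and 0.03 for prednisone minus model (-0.87 to 0.93; adjusted p = 0.976), so changes of close to 1 either way are not shut out. Against control they were -0.99 in SMD and -0.94 in prednisone (adjusted p = 0.29 and 0.221). Without model replicate 1, the highest of all libraries, the log2 fold change of model minus control was -1.40 (adjusted p = 0.172, and 0.172 to 0.492 over all 26 alternatives).

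Cyp1b1, which makes 4-hydroxyoestradiol and is known mainly from stromal cells, was near the limit of the filter. It had 1.65, 1.66, 1.67, 1.66 and 1.10 FPKM in SMD and 1.70, 1.44, 1.04, 1.56 and 1.503 FPKM in prednisone libraries. Model libraries had 1.43, 1.21, 2.25, 1.66 and 1.29 FPKM, against 2.35, 1.76, 1.78, 2.25 and 2.00 FPKM in control libraries. All 5 SMD and all 5 prednisone libraries lay below all 5 control libraries, while the model and control libraries overlapped. Such a gap downward was found for 2.58% of all genes with SMD and 3.14% with prednisone. The log2 fold changes from control were -0.25 ± 0.109 in SMD and -0.31 ± 0.109 in prednisone (SE; limma, adjusted p = 0.291 and 0.117), and -0.25 in model (adjusted p = 0.278). Between SMD or prednisone and model they were -0.00 and -0.06.

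The receptor gene Ahr itself was called in 3 comparisons, in which neither Cyp1a1 nor Cyp1b1 was. Ahr had 10.9, 13.5, 13.0, 14.6 and 10.4 FPKM in SMD libraries and 6.05, 7.92, 7.87, 7.44 and 8.35 FPKM in prednisone libraries. Model libraries had 8.12, 9.58, 8.46, 7.86 and 7.94 FPKM, against 8.94, 11.1, 9.03, 9.20 and 11.2 FPKM in control libraries. Every SMD library was above every prednisone and every model library. Ahr rose in SMD relative to model (log2 fold change 0.51; limma, adjusted p = 0.0134) and was higher in SMD than in prednisone (0.66, adjusted p = 8.03e-04). It fell in prednisone relative to control (-0.35, adjusted p = 0.0469), a call lost in 16 of 20 fits that left out 1 library and in 2 of the 6 other settings. The first call was lost when only the SMD and model libraries were fitted. Tiparp, an AhR-induced gene that also answers to other signals, was lower in SMD than in prednisone (-0.50, adjusted p = 0.0331; lost in 8 of the 20 fits and without the filter). Of the 8 listed genes of the AhR pathway, 6 were tested, and the other calls were 0 in model with control and in SMD with control, with 1 lower and 1 higher at an unadjusted p under 0.05. In prednisone with model limma also called 0, with 1 higher at that level. Of all genes, 2.81% were lower in model with control at that level. The shares higher were 6.48% in SMD with control and 5.04% in prednisone with model.

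Cyp4b1 (chromosome 4, 115624725 to 115647723, minus strand) is the lung-enriched P450 that hydroxylates fatty acids and activates the club cell toxin 4-ipomeanol. It had 205, 156, 145, 146 and 140.4 FPKM in SMD and 249.6, 133, 135, 232 and 183 FPKM in prednisone libraries. Model libraries had 160.4, 142, 168, 146 and 231 FPKM, against 217, 192, 216, 266 and 182 FPKM in control libraries. The groups overlapped, with model replicate 5 and SMD replicate 1 far above the rest of their groups. Means were 158 ± 26.6 FPKM in SMD, 186 ± 53.6 FPKM in prednisone, 169.6 ± 36.0 FPKM in model and 215 ± 32.7 FPKM in control libraries (SD, n = 5 each). The log2 fold change of model minus control was -0.35 ± 0.173 (SE; limma, adjusted p = 0.336). SMD minus model was -0.09 (95% interval -0.45 to 0.27) and prednisone minus model 0.11 (-0.25 to 0.47), with adjusted p = 0.829 and 0.758. SMD minus control was -0.44 (adjusted p = 0.236).

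Cyp2b10, the gene best known as the target of CAR in liver, had 114, 88.0, 84.6, 89.0 and 82.0 FPKM in SMD and 119.9, 91.2, 80.4, 110.4 and 105 FPKM in prednisone libraries. Model libraries had 108, 88.1, 112, 88.0 and 134 FPKM, against 112, 100.005, 126, 137 and 100.4 FPKM in control libraries. Its highest value was 1.70 times its lowest, and the groups overlapped. Its log2 fold change was -0.13 ± 0.130 for model minus control (SE; limma, adjusted p = 0.678), -0.20 for SMD minus model (adjusted p = 0.427), -0.06 for prednisone minus model (adjusted p = 0.837) and -0.33 for SMD minus control (adjusted p = 0.24). Its -0.33 to 0.21 interval for prednisone minus model leaves no room for a change of 0.5 or more.

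Cyp2a5, the mouse coumarin 7-hydroxylase that also activates tobacco nitrosamines, had 77.7, 73.8, 96.1, 40.1 and 56.5 FPKM in SMD and 88.2, 83.1, 42.2, 89.1 and 56.5 FPKM in prednisone libraries. Model libraries had 81.5, 104, 123, 49.2 and 103 FPKM, against 102, 64.8, 117, 77.3 and 164 FPKM in control libraries. It spread more than the other abundant members, from 40.1 FPKM in SMD replicate 4 to 164 FPKM in control replicate 5, and the groups overlapped. On the log2 scale the change was -0.41 ± 0.288 for SMD minus model (SE; limma, adjusted p = 0.467), -0.35 for prednisone minus model (adjusted p = 0.51), -0.18 for model minus control (adjusted p = 0.811) and -0.59 for SMD minus control (adjusted p = 0.359). Of the 150-base windows of its transcripts, 4.56% occur unchanged in other family members, most of them in Cyp2a4, which averaged 0.195 FPKM. How the authors counted reads shared by such copies is not stated.

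Cyp2s1, an enzyme of surface epithelia that acts on retinoids, had higher means outside the control group, unlike these members. It had 50.7, 55.1, 58.0, 36.2 and 35.5 FPKM in SMD and 54.8, 54.7, 50.3, 59.7 and 48.9 FPKM in prednisone libraries. Model libraries had 55.7, 48.1, 46.7, 50.2 and 45.5 FPKM, against 38.1, 38.0, 40.4, 36.9 and 52.3 FPKM in control libraries. Control replicate 5 stood among the model and prednisone values, and the other 4 control libraries were below all model and all prednisone libraries. The SMD libraries were split, with 3 above 50 FPKM and 2 below 37 FPKM. In log2 terms the difference was 0.38 ± 0.124 for prednisone minus control (SE; limma, adjusted p = 0.09) and 0.26 for model minus control (adjusted p = 0.316). Without control replicate 5 the first became 0.47 and was called (adjusted p = 0.0413), and over the 26 alternatives its adjusted p ranged up to 0.188. SMD minus model was -0.09 and prednisone minus model 0.12 (adjusted p = 0.75 and 0.607).

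Cyp2d22, the mouse gene often set beside human CYP2D6, came closest of all members to the threshold in the 6 comparisons. It had 10.1, 10.2, 9.70, 9.04 and 8.27 FPKM in SMD and 13.4, 9.89, 8.65, 14.5 and 11.7 FPKM in prednisone libraries. Model libraries had 9.60, 9.95, 10.2, 11.4 and 15.6 FPKM, against 13.0, 12.9, 11.9, 17.1 and 12.6 FPKM in control libraries. All SMD libraries were below all control libraries, and all other pairs of groups overlapped. The mean was 9.45 ± 0.795 FPKM in SMD and 13.5 ± 2.03 FPKM in control libraries (SD, n = 5 each), and their log2 difference was -0.46 ± 0.133 (SE; limma, adjusted p = 0.0896). When only the SMD and control libraries were fitted it was called at an adjusted p of 0.046, and over the 26 alternatives the adjusted p reached 0.247. Other log2 fold changes were -0.23 for SMD minus model, 0.03 for prednisone minus model and -0.24 for model minus control (adjusted p = 0.376, 0.926 and 0.393).

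**Figure D3:**
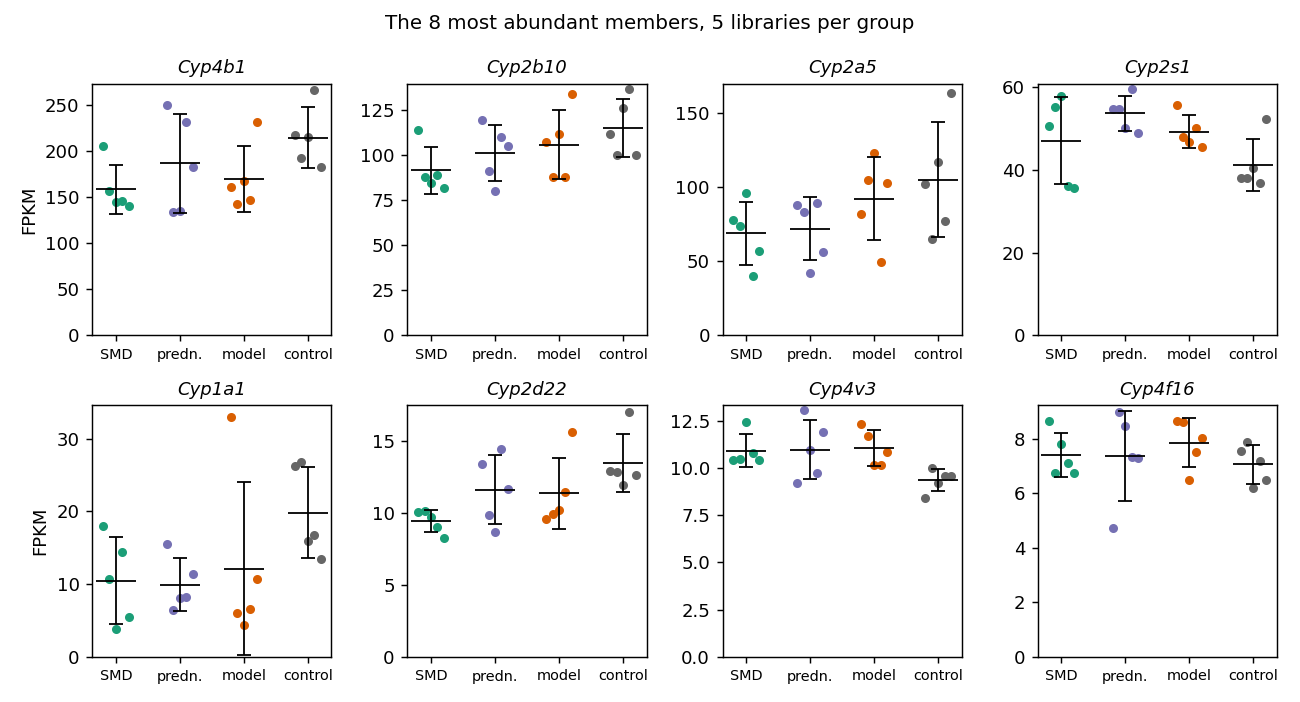
FPKM of the 8 most abundant members in each library (points), with the mean and SD of the 5 libraries of each group (black bars); predn. is prednisone. Groups overlap in nearly every panel, with the SMD libraries of Cyp2d22 all below the control libraries and the model and SMD libraries of Cyp4v3 all above them.

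Markers of fat and cardiac muscle, tissues that can be carried with the lung, were lower on the whole outside the control group. Markers of fat summed over 10 genes to 18.3 to 39.8 FPKM in SMD, 20.996 to 102 FPKM in prednisone, 36.3 to 390.4 FPKM in model and 66.1 to 752 FPKM in control libraries, with Lep listed at 0 in 3 libraries and Ucp1 in 4. Of the 8 tested, 2 were lower in SMD than in control in limma, where 1.05% of all genes were called. At an unadjusted p under 0.05 in limma, 7 of the 8 were lower in SMD than in control, where 8.06% of all genes were. In prednisone 7 were lower than in control at that level (10.5% of all genes), and in model 1 (2.81%). Markers of cardiac muscle summed over 9 genes to 95.4 to 146 FPKM in SMD, 75.3 to 256 FPKM in prednisone, 129.7 to 258 FPKM in model and 154 to 540.2 FPKM in control libraries, and 1 of 8 tested was called lower in SMD than in control. Without adjustment, all 8 were lower in SMD than in control at a limma p under 0.05, 4 were in prednisone and 1 was in model. Of the 12 club cell markers tested, limma called 0 in model with control and 1 higher in SMD with model (2.15% of all genes called). In model with control 1 was lower at an unadjusted p under 0.05, where 2.81% of all genes were. The endothelial, smooth muscle and pericyte, and monocyte and macrophage lists had more calls, most of them with prednisone. The neutrophil list had 0 calls in every comparison, and the B and plasma cell list at most 2 in a comparison. Of all genes, 3.57% were called in prednisone with control and 8.04% in prednisone with model. Endothelial markers (12 genes) summed to 651 to 884 FPKM in SMD, 527 to 689.9 FPKM in prednisone, 673 to 797 FPKM in model and 767 to 939 FPKM in control libraries. In prednisone 6 of the 12 were called lower than in control and 3 lower than in model. Smooth muscle and pericyte markers (10 genes) summed to 270.5 to 325 FPKM in SMD, 223 to 270.0 FPKM in prednisone, 282 to 339 FPKM in model and 301 to 366 FPKM in control libraries, and 4 of 10 were called lower in prednisone than in control and 3 lower than in model. Monocyte and macrophage markers (13 genes) summed to 192 to 232 FPKM in SMD, 196 to 283 FPKM in prednisone, 168 to 256 FPKM in model and 147 to 169 FPKM in control libraries, and 5 of the 12 tested were called higher in prednisone than in control and 2 higher than in model. None of the markers in the endothelial, smooth muscle and macrophage lists was listed at 0 in any library. The part of these tissues and cells in the members' values was not tested.

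Some abundant members were highest in the same libraries. The 4 libraries with the most Cyp4b1 (control replicate 4, prednisone replicates 1 and 4 and model replicate 5) were also the 4 with the most Cyp2d22, and 3 of them were among the 4 with the most Cyp2b10. They held 0 of the top 4 of Cyp2a5, Cyp1a1, Cyp4v3, Cyp4f16, Cyp4f18 and Cyp4a12b. The same 4 libraries were also the highest for Tsc22d3 (319 to 369 FPKM) and Klf15 (33.8 to 41.4 FPKM), both induced by glucocorticoids. Sgk1, another glucocorticoid-induced gene, was highest in model replicate 4 (80.0 FPKM). The shared ranking is thus not particular to the members, and its cause was not tested. The summed level of all 79 members was 433 ± 62.0 FPKM in SMD, 482 ± 90.1 FPKM in prednisone, 488 ± 71.0 FPKM in model and 556 ± 44.7 FPKM in control libraries (SD, n = 5 each), and the ranges of all groups overlapped. In this sum Cyp4b1, Cyp2b10 and Cyp2a5 weigh most.

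The family 4 members and the Cyp2j genes act on fatty acids and eicosanoids. Cyp4v3, the mouse counterpart of human CYP4V2, a fatty acid hydroxylase mutated in a crystalline retinal dystrophy, had 10.4, 10.5, 12.5, 10.8 and 10.4 FPKM in SMD and 9.21, 13.1, 10.9, 9.76 and 11.9 FPKM in prednisone libraries. Model libraries had 12.3, 11.7, 10.2, 10.2 and 10.8 FPKM, against 8.43, 9.99, 9.21, 9.58 and 9.61 FPKM in control libraries. All model and all SMD libraries were above all control libraries, a gap found for 2.84% of all genes with model and 2.09% with SMD, and the prednisone libraries overlapped with control. The difference was small: the log2 fold change was 0.22 ± 0.0821 for model minus control (SE; limma, adjusted p = 0.217), 0.20 for SMD minus control (adjusted p = 0.256) and 0.20 for prednisone minus control (adjusted p = 0.168). SMD minus model was -0.01 (95% interval -0.19 to 0.16) and prednisone minus model -0.01 (-0.19 to 0.16). Of its exonic bases, 8.22% lie in exons of the annotated gene Gm45753 on the same strand, so reads there cannot be told apart.

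The Cyp4f genes lie in a cluster on chromosome 17, apart from Cyp4f18 on chromosome 8, and their enzymes hydroxylate leukotriene B4 and other fatty acids. Cyp4f16 had 8.65, 6.76, 7.82, 7.11 and 6.76 FPKM in SMD and 4.74, 8.998, 8.49, 7.34 and 7.31 FPKM in prednisone libraries. Model libraries had 8.65, 8.62, 6.49, 7.53 and 8.03 FPKM, against 7.54, 7.88, 6.21, 7.19 and 6.50 FPKM in control libraries. Prednisone replicate 1 held the lowest value and prednisone replicate 2 the highest, so that group spanned the range of all libraries. The log2 fold change of Cyp4f16 was -0.07 ± 0.120 for SMD minus model, -0.10 for prednisone minus model and 0.13 for model minus control (limma, adjusted p = 0.792, 0.669 and 0.618). Cyp4f13 ranged from 5.78 to 8.56 FPKM, with log2 fold changes of -0.18 for SMD minus model and -0.15 for prednisone minus model (adjusted p = 0.256 and 0.304). Cyp4f15 had the highest values in prednisone replicates 1 and 4, 7.34 and 7.24 FPKM, and its log2 fold change for prednisone minus model was 0.29 (adjusted p = 0.229).

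Cyp4f17 and Cyp4f18 were lower in level. Cyp4f17 had 2.97, 3.64, 3.41, 3.00 and 2.00 FPKM in SMD libraries, against 2.35, 2.39, 2.38, 1.86 and 1.39 FPKM in model libraries. The 4 SMD libraries other than replicate 5 were above all model libraries. The log2 fold change for SMD minus model was 0.38 ± 0.137 (SE; limma, adjusted p = 0.138), behind only Cyp2a5 in size among members there, with 0.20 for prednisone minus model (adjusted p = 0.401). Cyp4f18, which breaks down leukotriene B4 in mouse neutrophils, averaged 1.78 ± 0.595 FPKM in SMD, 1.56 ± 0.299 FPKM in prednisone, 1.87 ± 0.239 FPKM in model and 1.65 ± 0.526 FPKM in control libraries (SD, n = 5 each). Its log2 fold change was 0.13 for model minus control (95% interval -0.16 to 0.43; limma, adjusted p = 0.688). Of its exonic bases, 9.76% overlap Zfp961 on the other strand, and whether the counting used strand is not stated. Neutrophil markers summed over 12 genes to 72.3 to 90.9 FPKM in SMD, 73.3 to 109 FPKM in prednisone, 90.7 to 126 FPKM in model and 78.6 to 127 FPKM in control libraries, with Ly6g listed at 0 in 6, Mpo in 9 and Elane in 13 libraries. Their part in the level of Cyp4f18 was not tested.

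Cyp4a12b belongs to the Cyp4a12 genes, whose enzyme makes 20-HETE from arachidonic acid, chiefly in the kidney of male mice. It had 0.605, 0.866, 1.60, 0.478 and 0.732 FPKM in SMD and 1.06, 1.61, 0.662, 1.46 and 0.688 FPKM in prednisone libraries. Model libraries had 0.668, 0.792, 0.958, 0.818 and 1.26 FPKM, against 2.02, 1.11, 1.48, 1.35 and 3.23 FPKM in control libraries. All 5 control libraries reached 1 FPKM, as did 3 prednisone libraries, 1 SMD library and 1 model library. The control libraries alone met the filter of 5 libraries, as did those of the other groups together. The level of Cyp4a12b lay near the limit of the filter. Log2 fold changes were -0.54 ± 0.185 for model minus control, -0.60 for SMD minus control and -0.42 for prednisone minus control (SE; limma, adjusted p = 0.182, 0.119 and 0.208). Its near-identical neighbour Cyp4a12a shares 25.9% of its 150-base windows and averaged 0.127 FPKM, so the split between them is uncertain. SMD minus model was -0.06 and prednisone minus model 0.12 (adjusted p = 0.906 and 0.742).

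The Cyp2j genes Cyp2j6 and Cyp2j9, neighbours on chromosome 4 whose family makes epoxides from arachidonic acid, gave the lowest p-values between the treatments. Cyp2j9 had 2.47, 1.86, 1.92, 2.37 and 1.59 FPKM in SMD libraries, against 1.60, 0.914, 1.73, 1.34 and 1.46 FPKM in prednisone libraries. The groups overlapped only through SMD replicate 5 and prednisone replicates 1 and 3. The log2 fold change for SMD minus prednisone was 0.34 ± 0.115 (SE; limma, adjusted p = 0.101), with 0.17 for SMD minus model and -0.17 for prednisone minus model (adjusted p = 0.456 and 0.401). Cyp2j6 had 3.93, 3.98, 3.79, 4.17 and 3.53 FPKM in SMD libraries, against 3.20, 2.91, 3.58, 3.23 and 3.62 FPKM in prednisone libraries. Here SMD replicate 5 and prednisone replicates 3 and 5 overlapped, and the log2 fold change was 0.18 ± 0.0683 (SE; limma, adjusted p = 0.144). For the other tested members, adjusted p-values between SMD and prednisone were 0.306 or more.

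**Figure D4:**
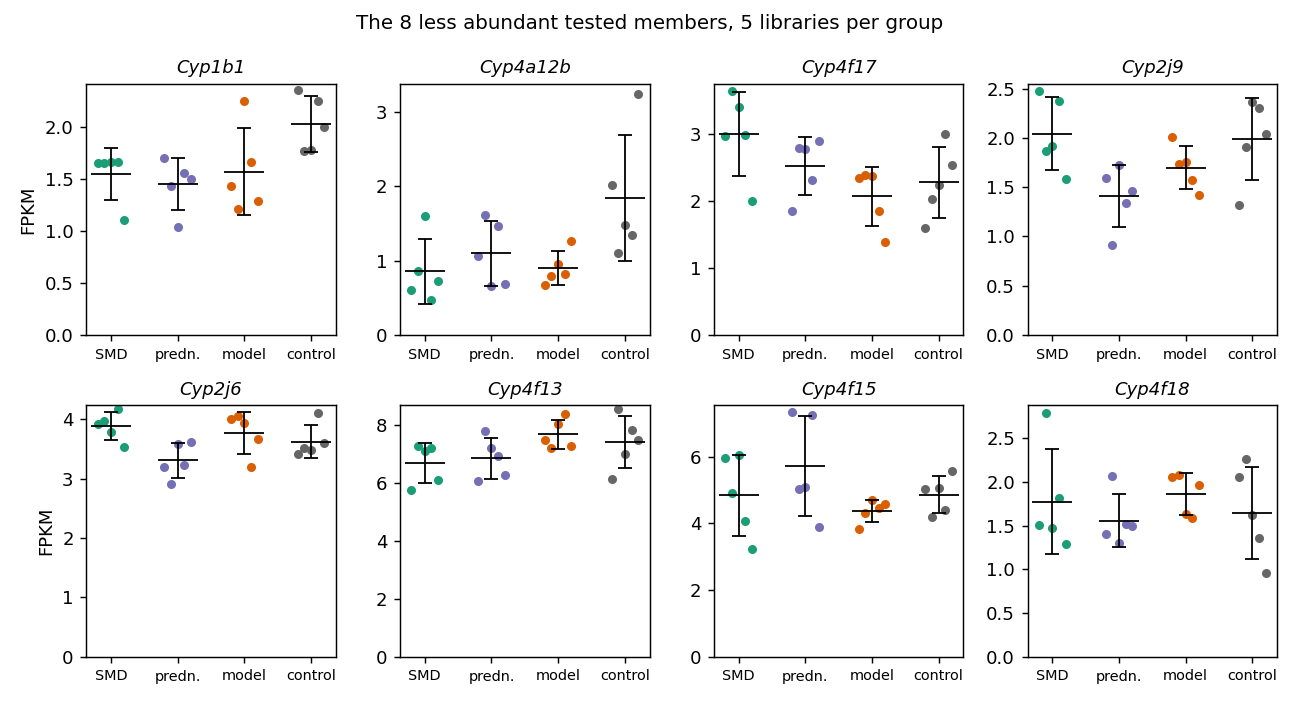
FPKM of the 8 less abundant tested members in each library (points), with the mean and SD of the 5 libraries of each group (black bars); predn. is prednisone. The SMD and prednisone libraries of Cyp1b1 all lie below the control libraries, and Cyp2j9 and Cyp2j6 are mostly lower in prednisone than in SMD libraries.

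Few genes of the lists around the P450s were called: apart from the glucocorticoid list, at most 3 of a list in a comparison, where 0.192% to 8.04% of all genes were. Whether lists and members differ in this was not tested. Of 18 tested genes that feed electrons or haem to P450s, limma called Alad (log2 fold change -0.40, adjusted p = 0.00231) and Urod (-0.21, adjusted p = 0.0324), both enzymes of haem synthesis, as lower in prednisone than in model. Urod was not called in 4 of the 6 other settings or in 5 of the 20 fits without 1 library. Alas1, which starts haem synthesis, and Cpox were lower in SMD than in prednisone (-0.42 and -0.29) and Alad was higher (0.24). The calls of Cpox and Alad were each lost in 3 of the 20 fits, and that of Cpox also with only the groups compared. In the remaining comparisons 0 of the 18 were called. At an unadjusted p under 0.05, 3 were higher and 0 lower in model with control, where 13% and 2.81% of all genes were. The counts were 0 and 4 in SMD with model (3.14% and 15.7% of all genes). They were 1 and 0 in SMD with control (6.48% and 8.06%) and 2 and 5 in prednisone with control (10.2% and 10.5%). P450 oxidoreductase (Por) was not called in any comparison, but its values spread widely outside the control group. Its means were 49.8 ± 33.3 FPKM in SMD, 48.9 ± 23.7 FPKM in prednisone, 58.4 ± 25.4 FPKM in model and 72.9 ± 5.07 FPKM in control libraries (SD, n = 5 each). From control, the log2 fold changes were -0.90 ± 0.524 in SMD and -0.72 ± 0.524 in prednisone (SE), so a sizeable change in Por is not shut out. The list's median lay between -0.15 and 0.06 over the 6 comparisons, where the median of all genes lay between -0.06 and 0.05.

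Of 14 listed transcription factors and receptors that regulate P450 genes, 10 were tested, and the genes of CAR, PXR and PPARα were not among those tested. Cebpb (-0.51) and Nfe2l2 (-0.21) fell in SMD relative to model and were also lower in SMD than in prednisone (-0.48 and -0.18). Against model, both calls were lost under median-of-ratios scaling, quantile normalization and with only the groups compared, and Cebpb lost its call in 5 of the 6 settings. Nr1h3, the oxysterol receptor LXRα, fell in prednisone relative to model (-0.30) and to control (-0.39). Of the 28 tested enzymes of other phase 1 families, Fmo2, the lung flavin monooxygenase, was lower in SMD than in prednisone (-0.67) and in control (-0.66), and Fmo1 was lower in prednisone than in control (-0.54). Cbr3 and Maoa were higher in SMD than in prednisone (0.36 and 0.38), Ephx2 was lower in SMD than in control (-1.43) and Ces1f lower in prednisone than in control (-0.71). Of 25 tested conjugating enzymes, Gstp1 (-0.33) and Gstm5 (-0.43) fell in prednisone relative to model, Sult1a1 was lower in SMD than in prednisone (-0.76) and control (-0.996), and Gsta3 was lower in SMD than in control (-0.66). Leaving out 1 library ended many of these calls. Maoa lost its call in 14 of the 20 fits, Ces1f in 10 and Ephx2 in 9, and each also in 3 of the 6 other settings. Sult1a1 lost its call in 8 fits with prednisone and 6 with control, Gsta3 and Fmo2 with control in 7 each, and Gstm5 in 1. Against model, Cebpb lost its call in 8 fits and Nfe2l2 in 5, and against prednisone in 4 and 5. Of the 6 other settings, Gsta3, Gstm5 and Fmo2 with control were lost in 2 each, and Gstp1, Sult1a1 in both comparisons, Nr1h3 with model and Cebpb with prednisone in 1 each. Values in this paragraph are log2 fold changes at a limma adjusted p under 0.05. Model with control gave 0 calls in each of these lists, with 2, 0 and 1 higher and 0, 8 and 2 lower at an unadjusted p under 0.05. Of all genes, 13% were higher and 2.81% lower at that level.

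Among 14 tested enzymes of arachidonic acid metabolism, Ptgis, the P450 that makes prostacyclin, fell in SMD (-0.45) and in prednisone (-0.41) relative to model (limma, adjusted p = 0.00892 and 0.00715). Both calls were lost under quantile normalization. Tbxas1, the thromboxane synthase, and Alox5ap were higher in prednisone than in control (1.63 and 0.64). Tbxas1 lost its call without the filter and in 2 of the 20 fits, and Alox5ap in 2 of the 6 settings and 4 fits. Of 11 tested P450 genes that are not members, Cyp27a1, a sterol 27-hydroxylase, was lower in SMD than in model (-0.32) and prednisone (-0.30). Cyp51, of cholesterol synthesis, was lower in prednisone than in model (-0.39). Both calls against model were lost under quantile normalization, under median-of-ratios scaling, with only the groups compared and without the filter, and in 7 of the 20 fits each. Cyp27a1 against prednisone was lost in 1 setting and 4 fits. Cyp20a1 was lower in prednisone than in control (-0.18), a call lost in 19 of the 20 fits and in 1 of the 6 settings. Cyp2e1, of family 2 but left out of the members by name, was lower in SMD than in control (-2.62). The call of Cyp2e1 was lost in 14 of the 20 fits and in 3 of the 6 settings. It had 80.0, 6.56, 6.26, 63.8 and 18.1 FPKM in control libraries, against 2.18 to 3.54 FPKM in SMD libraries. Ephx2, also called lower in SMD than in control, was likewise highest in control replicates 1 and 4 (8.66 and 7.65 FPKM). The other control libraries had 1.68 to 4.06 FPKM of Ephx2. Ptgis and Tbxas1 are in this list too. The glucocorticoid-induced list was chosen with its result in these libraries known. Of its 15 genes, limma called 9 lower in SMD than in model, where 2.15% of all genes were called. It called 14 lower in SMD than in prednisone (4.59% of all genes) and 7 lower in SMD than in control (1.05%). With prednisone against model and model against control it called 0 of the 15, and with prednisone against control 1 higher. At such shares of all genes, 0 of 16 does not set the members apart from other genes.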

How the data were processed

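RNA of mouse lung was measured in 20 libraries, 5 for each of 4 groups. TRIzol extraction, a NEBNext Ultra library kit and paired-end NovaSeq reads are given per the labels' protocols. The values the authors deposited are FPKM, 1 for each Ensembl gene in a library. The submitters' processing notes name the build GRCm38 and the tools HISAT2, featureCounts, fastp and DESeq2, with no version. Which program made the FPKM values, the annotation and the use of strand are not given in the sources used. Of 54532 identifiers, 54495 were found in GENCODE M21 (GRCm38), which gave symbols, biotypes and positions.

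Members were the protein-coding genes whose symbol starts with Cyp1 to Cyp4 and a letter, without Cyp2f2 and Cyp2e1. The 15106 genes that reached 1 FPKM in at least 5 libraries were tested on log2(FPKM + 1), so fold changes of low genes are understated. In R 4.3.3, limma 3.58.1 fitted the 4 group means to all libraries at once without covariates (16 residual degrees of freedom, 19.1 after moderation). Tests were two-sided, with Benjamini-Hochberg adjustment over all genes in a comparison. The code was tested on simulated data. Low values of 21352 single-exon genes came within 0.05 of whole reads in 11.7% to 13.9% of cases at best, where 10% is chance, so depth stays unknown. Copies were judged by 150-base windows shared with other genes of families 1 to 4 in the GENCODE transcripts. Promoter windows are from RefSeq (GRCm38.p6), and 64 of 79 members had an entry.

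Members and gene lists were chosen with earlier results of these data known. All tested members are named, the 8 most abundant with full values. Up to 4 called genes of each list are named per comparison, apart from the glucocorticoid and marker lists. Full values of Cyp1b1, Cyp4a12b and Ahr were added after their values were seen. So were the values of Cyp4f17, given for SMD and model libraries only. The same holds for Cyp2j6 and Cyp2j9, given for SMD and prednisone libraries only. For Cyp4f17, Cyp2j6 and Cyp2j9, the libraries of the other groups appear only in the plot of the less abundant tested members. Same-numbered libraries of different groups did not deviate together, so the numbers were not treated as pairs.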

Additional observations from a re-analysis of the deposited data

Results flagged for a closer look

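In 10 of 64 groups of 5 values of a tested member, 1 library stood apart from the other 4, its gap to the nearest exceeding 0.71 of the group's range. Chance gives about 1 in 20 such groups. In SMD libraries these were replicate 1 for Cyp4b1 (205 FPKM, group median 146 FPKM) and for Cyp2b10 (114 FPKM, median 88.0 FPKM). They were also replicate 3 for Cyp4v3 (12.5 FPKM, median 10.5 FPKM) and replicate 5 for Cyp1b1, the only low value among them (1.10 FPKM, median 1.66 FPKM). Prednisone replicate 2 was high for Cyp4f18 (2.07 FPKM, median 1.49 FPKM). In model libraries, replicate 5 was high for Cyp4b1 (231 FPKM, median 160.4 FPKM) and replicate 1 for Cyp1a1 (32.9 FPKM, median 6.61 FPKM). Among control libraries, replicate 4 was high for Cyp2d22 (17.1 FPKM, median 12.9 FPKM) and Cyp2j6 (4.10 FPKM, median 3.53 FPKM), and replicate 5 for Cyp2s1 (52.3 FPKM, median 38.1 FPKM). The cause of these values was not tested.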

How the results depend on the processing

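The number of members called was 0 in all 6 comparisons with a pseudocount of 0.1, without the filter, after scaling by the median of ratios, after quantile normalization and with the replicate block, and with only the groups compared in 5 of the 6. With only the SMD and control libraries fitted, 1 member was called (Cyp2d22). Leaving out 1 library gave 0 members in 5 comparisons, and 0 to 1 in prednisone minus control (Cyp2s1, without control replicate 5). The replicate block gave 0 members in each comparison, so it changed no call of a member. Among the list genes it ended the calls of Ephx2, Cyp2e1 and Gsta3 in SMD minus control, Cebpb in SMD minus model, Maoa in SMD minus prednisone and Ces1f and Sgk1 in prednisone minus control. Over 30 pairs of same-numbered libraries of different groups, the correlation of their deviations lay between -0.18 and 0.24, with 6 pairs over 0.1, and 0 of 20 libraries matched best with their own number in every other group. Of the single members' fold changes, 1 became a call in the other settings and 1 on leaving out a library. Some members' fold changes reversed their sign over the 26 alternatives. That of Cyp1a1 ran from -0.25 to 0.41 for SMD minus model, and that of Cyp2a5 from -0.33 to 0.03 for model minus control. No list gene reversed its sign among those named. Losses of list genes' calls under the other settings are given where the report names them. These settings were applied to the list genes after the data were seen. Depth is unknown, and members under 1 FPKM could not be compared between groups.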

Other observations

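Of 30 genes of families 1 to 4 that are not protein-coding, 29 stayed under 1 FPKM in every library. The pseudogene Cyp4b1-ps2 was the exception. It had 1.06, 0, 1.95, 8.71 and 6.52 FPKM in SMD and 1.00, 3.32, 1.15, 0.106 and 1.88 FPKM in prednisone libraries. Model libraries had 2.13, 0.803, 0.402, 0.387 and 2.75 FPKM, against 7.90, 12.4, 2.84, 0.0255 and 13.2 FPKM in control libraries. Values ran from 0 FPKM in SMD replicate 2 to 13.2 FPKM in control replicate 5, and the groups overlapped. Its order over the libraries was not that of Cyp4b1: control replicate 4, with the most Cyp4b1, had 0.0255 FPKM of the pseudogene. Cyp4b1 shared 0 of its 150-base windows with any other gene of families 1 to 4.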
